A study of Mus musculus with 4 samples.

Results

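Monocyte_1 is the largest monocyte cluster that the authors named among CD45+ (immune) cells sorted from mouse melanomas. The cells were taken by that name alone from the authors' table of cell types, which gave 8762 of 33368 cells. Of these, 4977 came from NTT, 384 from RTT, 54 from RTT_ROSA26 and 3347 from RTT_PTGS12KO. The 8 genes Ly6i, Nos2, Inhba, Cfb, Cxcl9, C3, Upp1 and Ly6c2 served as their markers.

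Single-cell RNA was counted as UMIs (unique molecular identifiers, 1 per captured transcript end) in 4 samples, 1 per group, from Rag2-/- mice. These mice make neither T nor B cells, and all of them received OT-1 T cells, specific for an ovalbumin peptide, on day 7 and had their tumours taken on day 10, 72 h later. All tumours were grown from YUMM1.7 cells, a mouse melanoma line carrying BrafV600E, made to express ovalbumin. NTT is a line naive to targeted therapy, and RTT is a line that became resistant to a BRAF inhibitor. RTT_ROSA26 is the resistant line edited with a control guide against the Rosa26 locus, and RTT_PTGS12KO the resistant line edited in Ptgs1 and Ptgs2, which encode the cyclooxygenases that start prostaglandin synthesis. The edits are in the cancer cells and not in the monocytes, and by the study's methods edited lines were made from clones with inducible Cas9, so each line may differ from the others in more than its edit. The labels give 1 tumour per condition whereas the study's legends describe pooled tumours, and this was not settled. The comparisons ask how monocytes differ between naive and resistant tumours, and between resistant tumours with and without cancer cell Ptgs1 and Ptgs2.

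Classical monocytes leave the blood through the receptor Ccr2, carry the surface protein Ly6C encoded by Ly6c2, and in tumours become macrophages or take up inflammatory states. Type I interferons signal through Stat2 and Irf9 to antiviral genes, whereas interferon gamma, made by T cells and NK cells, acts on genes of antigen presentation and on the chemokines Cxcl9 and Cxcl10. Prostaglandin E2 acts on myeloid cells through the receptors EP2 and EP4, encoded by Ptger2 and Ptger4, which raise cyclic AMP.

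Each group is 1 sample, so the differences have no replicates behind them and were not tested. Each level is the sum of a gene's UMIs over the Monocyte_1 cells of a sample per 1000000 UMIs of that sum (CPM), and each difference is a log2 ratio of CPM + 1. Intervals are at 95% (exact Poisson for levels, exact binomial for ratios of CPM without the added 1, Clopper-Pearson for shares, a log interval after Katz for ratios of 2 shares) and cover counting error only. Those for levels and ratios of CPM treat UMIs as independent, so they are too narrow where UMIs of a gene cluster in few cells. Because of the added 1, the log2 ratio of a low gene can lie near or outside its interval. The sums held 39632698 UMIs in NTT and 36502431 in RTT_PTGS12KO, and 3630428 in RTT and 412344 in RTT_ROSA26, with medians of 7273, 9667, 8719 and 6550 UMIs per cell in this order. In RTT_ROSA26 a gene with no UMI may still lie at up to 7.28 CPM, so its values are the least precise. A gene is called different at 2-fold or more, among the 6468 genes whose mean over the 4 samples reached 10 CPM.

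The name was checked against the markers. Over all samples together, 7 of the 8 markers were among the 10 genes with the highest ratio of Monocyte_1 to all other cells, led by Gm15056 (67.5 against 2.79 CPM) and Ly6i (719 against 47.2 CPM), and Upp1 was the 11th. Against single clusters, Nos2, Inhba and Cxcl9 were highest in Monocyte_1 of 17 types, and the other 5 markers were higher in another monocyte cluster. Ly6c2 (3077 against 1742 CPM), Upp1 (652 against 486) and Cfb (418 against 391) were higher in Infl_Mono. Ly6i (1068 against 719 CPM) and C3 (221 against 212) were higher in Monocyte_3, which held 26 cells in NTT, 33 in RTT_PTGS12KO, 4 in RTT_ROSA26 and none in RTT, and C3 was also higher in Infl_Mono (217). These genes describe the cluster and are no test of it, since the cells were clustered on them. They rank at the top of the pooled cluster, in which most cells came from NTT and RTT_PTGS12KO. Higher marker levels in those samples are therefore partly built in, and marker counts in the comparisons below are descriptions only. After each cell was thinned to 3000 UMIs, the median number of markers with a UMI was 5 in NTT and 4 in RTT_PTGS12KO, and 2 in RTT and 3 in RTT_ROSA26. Cells without any marker made up 0.226% in NTT and 4.97% in RTT_PTGS12KO, and 17.8% in RTT and 7.84% in RTT_ROSA26. Cells with more UMIs of a list of 12 classical monocyte genes than of a list of 18 macrophage genes made up 66.4% in NTT and 54.2% in RTT_PTGS12KO, and 32.2% in RTT and 58.8% in RTT_ROSA26. The RTT cells therefore went in part against the name. In the monocyte-leaning cells alone, which were 3347, 126, 34 and 1864 cells in NTT, RTT, RTT_ROSA26 and RTT_PTGS12KO, 62 of 90 medians of lists beside the interferon, MHC class II and macrophage lists kept their sign over all 5 comparisons, and the cause of the turns was not tested. Lists that chose these cells, or share genes with those that did, are affected by the choice.

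**Figure D1:**
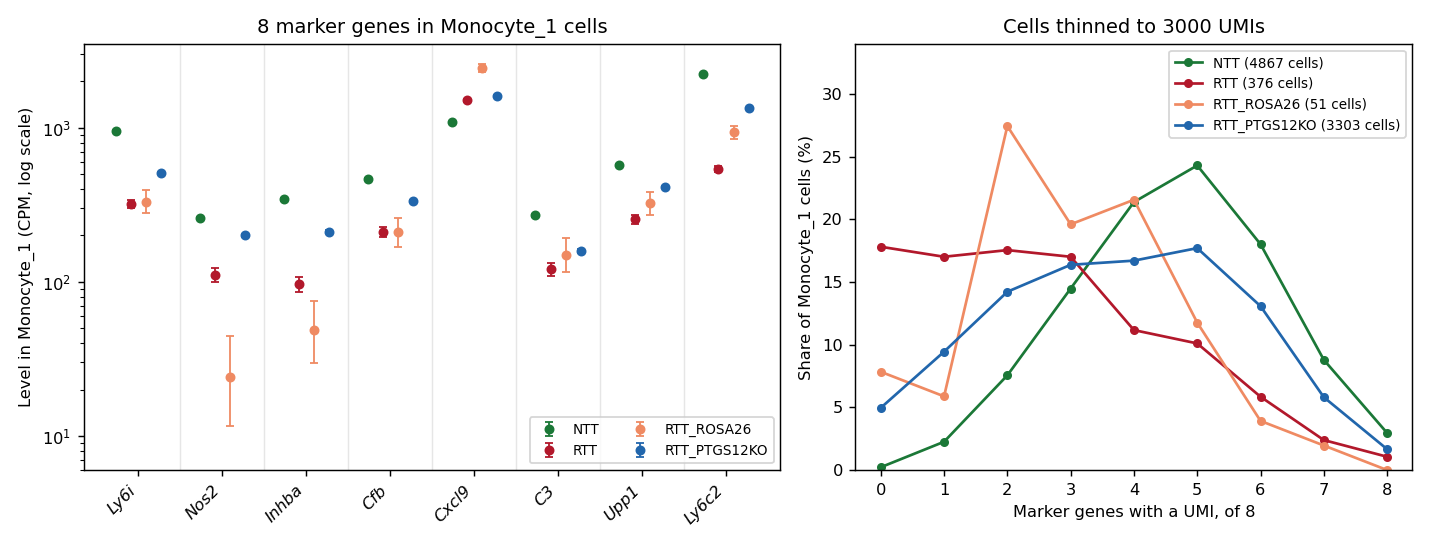
Left, level of the 8 marker genes in Monocyte_1 cells (CPM, log scale) in the 4 samples, with 95% counting intervals as bars. Right, share of cells (%) against the number of markers with a UMI after thinning to 3000 UMIs, where the NTT curve peaks at 5 markers and the RTT curve is highest at 0.

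Markers of other cells were low. The summed levels were 2.30 to 4.13 CPM for 8 T cell genes, 6.89 to 21.8 for 8 NK cell genes, 12.1 to 27.2 for 8 dendritic cell genes, 1.93 to 3.43 for 4 B cell genes, 0 to 2.75 for 4 mast cell genes and 6.11 to 18.8 for 10 tumour and stroma genes. In RTT_ROSA26, 7 of the 8 T cell genes and all 4 mast cell genes were at 0. Neutrophil genes summed to 264 to 485 CPM, highest in RTT_ROSA26. Haemoglobin transcripts stood out in single cells, since 1 cell held 1616 of the Hbb-bs UMIs of NTT and 1 cell held 1584 of those of RTT_PTGS12KO. No barcode was shared between samples within a load, and 3 Monocyte_1 barcodes were seen in more than 1 of the 3 loads. A list of 15 genes that respond to tissue dissociation had a median log2 ratio of 0.66 between NTT and RTT, and its part in the results was not tested.

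Monocyte_1 cells made up most of the immune cells of NTT and few of those of the resistant tumours with intact Ptgs1 and Ptgs2. Their share of CD45+ cells was 60.2% (interval 59.1 to 61.3) in NTT and 32.5% (31.6 to 33.4) in RTT_PTGS12KO, and 4.82% (4.36 to 5.31) in RTT and 0.790% (0.594 to 1.03) in RTT_ROSA26. The intervals of the 4 samples did not overlap, and the 3 loads of the same pooled cells gave 58.8 to 61.4% in NTT and 0.744 to 0.823% in RTT_ROSA26. The share was 12.5-fold higher in NTT than in RTT and 41.2-fold higher in RTT_PTGS12KO than in RTT_ROSA26. RTT and RTT_ROSA26, which both keep the targeted genes, differed by a log2 ratio of -2.61 (interval -3.02 to -2.20). Among monocytes, Monocyte_1 made up 75.2% in NTT and 83.4% in RTT_PTGS12KO, and 73.6% in RTT and 37.5% (interval 29.6 to 45.9) in RTT_ROSA26.

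All markers but Cxcl9 were highest in NTT. Ly6c2 (chr15:75108158-75111970, minus strand of GRCm38), the defining surface gene of classical monocytes, reached 2229 CPM in NTT, 1342 in RTT_PTGS12KO, 539 in RTT and 934 in RTT_ROSA26. Its log2 ratio was 2.05 (interval 1.98 to 2.11) between NTT and RTT, and 0.52 (interval 0.38 to 0.67) when RTT_PTGS12KO was set against RTT_ROSA26. Ly6i (chr15:74979534-74983430, minus strand), a neighbour of the same gene family, stood at 954 CPM in NTT and 319 in RTT, and 332 in RTT_ROSA26 against 509 in RTT_PTGS12KO. In NK cells Ly6c2 was at 514 CPM in NTT and 139 in RTT_PTGS12KO, and 88.2 in RTT and 17.4 in RTT_ROSA26, and the part of this in the result was not tested. The order was the same for both monocyte genes except that the intervals of Ly6i in RTT (301 to 338) and RTT_ROSA26 (279 to 393) overlapped.

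Nos2 (chr11:78920787-78960254, plus strand), which makes nitric oxide from arginine, was at 259 CPM in NTT, 200.1 in RTT_PTGS12KO, 111 in RTT and 24.3 in RTT_ROSA26. Inhba (chr13:16011851-16031621, plus strand), a subunit of the secreted factor activin A, was at 343 CPM in NTT and 96.1 in RTT, and 48.5 in RTT_ROSA26 against 212 in RTT_PTGS12KO. Both were higher in NTT and RTT_PTGS12KO than in the other samples, with log2 ratios for RTT_PTGS12KO against RTT_ROSA26 of 2.99 (interval 2.17 to 4.11) and 2.10 (interval 1.50 to 2.84). The RTT_ROSA26 side of these ratios rests on 10 Nos2 UMIs in 5 cells and 20 Inhba UMIs in 6 cells, 9 of the latter in 1 cell.

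Cfb (chr17:34856374-34862518, minus strand) and C3 (chr17:57203970-57228136, minus strand) encode factor B and the central component of complement. Cfb was at 463 CPM in NTT, 333 in RTT_PTGS12KO, 212 in RTT and 211 in RTT_ROSA26. C3 was at 271 CPM in NTT and 121 in RTT, and 150.4 in RTT_ROSA26 against 159 in RTT_PTGS12KO. NTT was the highest sample for both, and the intervals of RTT and RTT_ROSA26 overlapped for both. Upp1 (chr11:9118103-9136170, plus strand), a uridine phosphorylase, was at 575 CPM in NTT, 415 in RTT_PTGS12KO, 254 in RTT and 323 in RTT_ROSA26, again highest in NTT.

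Cxcl9 (chr5:92321347-92328079, minus strand), the interferon gamma-induced ligand of Cxcr3 on T cells, ran the other way, at 1084 CPM in NTT and 1509 in RTT, and 2440 in RTT_ROSA26 against 1610 in RTT_PTGS12KO. It was lowest in NTT and highest in RTT_ROSA26, where 1 cell held 20.4% of its UMIs. Without the cell with most Cxcl9 UMIs in each sample, RTT_ROSA26 remained the highest at 1979 CPM.

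Between NTT and RTT, 138 genes were at least 2-fold higher in NTT (2.13% of 6468) and 60 were lower (0.928%), together 198 genes (3.06%), around a median of 0.04 over all genes. Of the 8 markers, 7 were at least 2-fold higher in NTT, and Cxcl9 was lower by less than that (-0.48), with a median of 1.19 that was 0.74 in monocyte-leaning cells. The markers lead a cluster with most of its cells from NTT, so this count is no test of the difference. The counting interval lay wholly past 2-fold for 75 genes higher and 39 lower in NTT. Beyond the markers, the 8 genes with the highest ratios by the bound of the interval nearest 0 held Lpl, H2-Q6, Rsad2, Oasl1, Pdcd1lg2, Gm15056 and Ifi44. Lpl (chr8:68880491-68907448, plus strand), lipoprotein lipase, which releases fatty acids from lipoproteins, was at 78.4 CPM in NTT, 106 in RTT_PTGS12KO, 3.58 in RTT and 4.85 in RTT_ROSA26. It was high in NTT and RTT_PTGS12KO and near absent in the other samples, where 13 and 2 UMIs were counted, and its log2 ratios were 4.12 (interval 3.68 to 5.36) between NTT and RTT, and 4.199 (interval 2.60 to 7.502) when RTT_PTGS12KO was set against RTT_ROSA26.

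Interferon-stimulated genes were higher in NTT. Of 29 genes of a type I interferon list that passed the minimum (32 in the list), all 29 had the higher level in NTT and 18 were at least 2-fold, where 2.13% of all genes were, with a median log2 ratio of 1.15. Rsad2 (chr12:26442746-26456452, minus strand), viperin, which blocks viral replication, was at 168 CPM in NTT and 28.1 in RTT, and 29.1 in RTT_ROSA26 against 100.6 in RTT_PTGS12KO. Isg15 (chr4:156199424-156200818, minus strand), a ubiquitin-like modifier, was at 622 CPM in NTT, 371 in RTT_PTGS12KO, 189.8 in RTT and 390.4 in RTT_ROSA26. Rsad2 was high in NTT and RTT_PTGS12KO, whereas Isg15 in RTT_ROSA26 and RTT_PTGS12KO lay between NTT and RTT.

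Irf7 (chr7:141262706-141266481, minus strand), the transcription factor that amplifies type I interferon production, was at 454 CPM in NTT and 139 in RTT, and 204 in RTT_ROSA26 against 175 in RTT_PTGS12KO. Ifi44 (chr3:151730922-151749960, minus strand) was at 64.7 CPM in NTT, 11.9 in RTT_PTGS12KO, 12.7 in RTT and 16.98 in RTT_ROSA26. For both, NTT alone stood high, and the log2 ratios for NTT against RTT_PTGS12KO were 1.37 (interval 1.33 to 1.41) and 2.35 (interval 2.29 to 2.59). Ifit3 (chr19:34583531-34588731, plus strand), which binds viral RNA complexes, was at 50.8 CPM in NTT and 13.8 in RTT, and 50.9 in RTT_ROSA26 against 23.1 in RTT_PTGS12KO, as high in RTT_ROSA26 as in NTT, with 42.9% of the RTT_ROSA26 UMIs in 1 cell.

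The list did not separate RTT_PTGS12KO from RTT_ROSA26. Its median log2 ratio was -0.10, 7 of 29 genes were higher in RTT_PTGS12KO, and 1 (Rsad2, 1.75) was at least 2-fold higher and 1 (Ifit3, -1.11) at least 2-fold lower but 0.91 in monocyte-leaning cells, against 4.02% and 2.3% of all genes. The sign of that median turned under TMM scaling (0.00, above 0), without load 2 (0.04) and in monocyte-leaning cells (0.24). The same list was higher in RTT_ROSA26 than in RTT, with a median of 0.71 and 5 of 29 genes at least 2-fold higher (3.01% of all genes), and in RTT_PTGS12KO than in RTT, with 0.42 and 3 of 29 (0.928% of all genes). NTT exceeded RTT_PTGS12KO in all 29 genes, 5 of them at least 2-fold (0.448% of all genes), with a median of 0.69. These comparisons share samples, so their values are given side by side only. Among monocyte-leaning cells the medians were 1.01 for NTT against RTT, 0.35 for RTT_ROSA26 against RTT and 0.50 for NTT against RTT_PTGS12KO.

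The promoters of these genes were read for a sequence feature, as a description of the lists. The interferon lists were made of genes known to respond to interferon. A high share of matches was thus built into the choice of genes and says nothing about these cells or samples. The windows of RefSeq from 250 bases before to 50 after each gene's start (GRCm38.p6) were searched on both strands for 2 copies of GAAA with any 2 bases between them, the core of the interferon-stimulated response element bound by interferon regulatory factors. It was found for 14 of 25 type I list genes with a window (56.0%) and 11 of 16 genes of the type II list described below (68.8%), against 1079 of 27025 genes with a window (3.99%). None of the 14 NF-kB list genes and none of the 5 markers with a window held it. A match is a description of letters in this window and not a site shown to be used. The windows below belong to genes of the interferon lists, to the marker Cxcl9 and to Cxcl10, a chemokine for lymphocytes described below. Of these genes, Gbp2 and Cxcl9 were lowest in NTT. Matches are in capitals, and the windows read 5′ to 3′ on the strand of the gene.
Rsad2 (chr12:26456403-26456702, minus strand): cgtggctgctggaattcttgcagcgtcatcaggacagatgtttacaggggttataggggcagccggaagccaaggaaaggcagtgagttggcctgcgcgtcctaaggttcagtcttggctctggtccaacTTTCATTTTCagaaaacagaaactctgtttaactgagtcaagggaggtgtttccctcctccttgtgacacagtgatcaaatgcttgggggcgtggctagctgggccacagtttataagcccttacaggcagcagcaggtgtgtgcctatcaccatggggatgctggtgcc
Isg15 (chr4:156200769-156201068, minus strand): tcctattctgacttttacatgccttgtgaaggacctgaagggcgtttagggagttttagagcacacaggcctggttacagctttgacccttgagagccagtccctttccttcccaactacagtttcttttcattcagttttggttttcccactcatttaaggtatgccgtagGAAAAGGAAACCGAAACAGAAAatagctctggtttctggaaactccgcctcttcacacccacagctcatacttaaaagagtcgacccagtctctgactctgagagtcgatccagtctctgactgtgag
Ifit3 (chr19:34583279-34583578, plus strand): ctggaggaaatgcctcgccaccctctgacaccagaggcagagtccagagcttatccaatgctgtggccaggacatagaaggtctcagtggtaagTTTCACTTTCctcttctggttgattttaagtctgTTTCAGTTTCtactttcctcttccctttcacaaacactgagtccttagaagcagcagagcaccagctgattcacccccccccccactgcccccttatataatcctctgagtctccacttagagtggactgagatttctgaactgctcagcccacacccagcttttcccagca
Gbp2 (chr3:142620413-142620712, plus strand): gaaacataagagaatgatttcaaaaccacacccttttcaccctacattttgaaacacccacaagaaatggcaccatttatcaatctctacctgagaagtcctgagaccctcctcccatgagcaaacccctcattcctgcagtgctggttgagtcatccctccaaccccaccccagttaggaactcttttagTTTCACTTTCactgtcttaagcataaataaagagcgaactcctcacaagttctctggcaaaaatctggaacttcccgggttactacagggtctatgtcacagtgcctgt
Cxcl10 (chr5:92348840-92349139, minus strand): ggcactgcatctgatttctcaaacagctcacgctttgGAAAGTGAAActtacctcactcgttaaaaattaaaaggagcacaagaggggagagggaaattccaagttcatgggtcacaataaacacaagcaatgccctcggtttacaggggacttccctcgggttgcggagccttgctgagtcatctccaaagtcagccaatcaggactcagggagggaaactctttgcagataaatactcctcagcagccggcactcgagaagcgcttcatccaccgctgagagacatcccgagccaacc
Cxcl9 (chr5:92328030-92328329, minus strand): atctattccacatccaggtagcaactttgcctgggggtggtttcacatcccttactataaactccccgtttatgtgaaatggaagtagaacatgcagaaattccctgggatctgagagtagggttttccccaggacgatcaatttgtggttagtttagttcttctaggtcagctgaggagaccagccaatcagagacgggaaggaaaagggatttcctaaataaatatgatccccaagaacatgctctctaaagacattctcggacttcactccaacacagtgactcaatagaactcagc
In Rsad2 the match began 120 bases before the gene's start, in Ifit3 there were matches at 156 and 122 bases, and in Gbp2 and Cxcl10 the match began at 59 and 213 bases. Isg15 had 3 overlapping matches between 78 and 66 bases before its start. Cxcl9 had no match in its window. The half-sites TTC and GAA with any 3 bases between them, the core of the interferon gamma-activated sequence, were found for 9 of 16 type II list genes (56.3%) and 3 of 25 type I list genes (12%), against 9.55% of all genes with a window. Both motifs hold GAA, so a match of one may overlap a match of the other.

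Genes more closely tied to interferon gamma differed less. Against RTT, NTT had the higher level in 22 of 24 genes of the type II list, 2 of them at least 2-fold (2.13% of all genes), with a median of 0.36 that was 0.08 in monocyte-leaning cells. Gbp2 (chr3:142620602-142638008, plus strand), a guanylate-binding protein of cell defence, was at 848 CPM in NTT, 1137 in RTT_PTGS12KO, 1223 in RTT and 1399 in RTT_ROSA26, lowest in NTT. The 2 genes past 2-fold were Gbp2b (1.78) and Serpina3g (1.22), and reads of Gbp2b and Gbp2, close relatives, may be split between them. For RTT_PTGS12KO against RTT_ROSA26 the median was 0.25, with 17 of 24 genes higher and 3 at least 2-fold (4.02% of all genes).

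**Figure D2:**
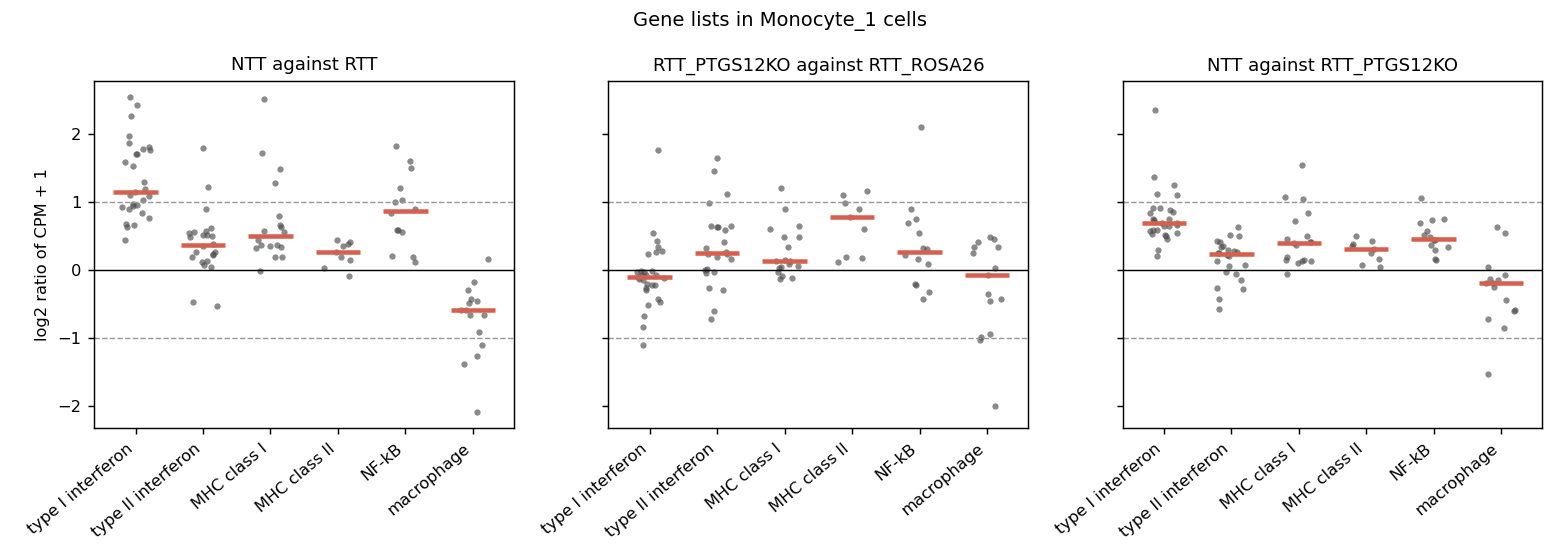
Each point is the log2 ratio of CPM + 1 of 1 gene of the list named on the x axis in Monocyte_1 cells, red bars are list medians and dashed lines mark 2-fold. The type I interferon list sits above 0 in NTT against RTT and around 0 in RTT_PTGS12KO against RTT_ROSA26, where the MHC class II list sits above 0.

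Antigen presentation differed by class. MHC class I presents peptides to CD8+ T cells, and for NTT against RTT 17 of 18 genes of its list were higher in NTT, 4 of them at least 2-fold (2.13% of all genes), with a median of 0.50. The 4 were the non-classical genes H2-Q4, H2-Q6, H2-Q7 and H2-T22, and H2-Q6 was at 298 CPM in NTT and 51.2 in RTT, and 43.7 in RTT_ROSA26 against 102 in RTT_PTGS12KO. H2-Q6 and H2-Q7 are close copies, so their counts may be split between them. The classical gene H2-K1 was at 3547 CPM in NTT, 2153 in RTT_PTGS12KO, 2054 in RTT and 1702 in RTT_ROSA26, and B2m, the light chain of class I, at 6023 CPM in NTT and 4444 in RTT, and 4116 in RTT_ROSA26 against 4544 in RTT_PTGS12KO. Both were highest in NTT and lowest in RTT_ROSA26.

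MHC class II presents to CD4+ T cells and was lowest in RTT_ROSA26. H2-Eb1 (chr17:34305867-34316674, plus strand), a class II beta chain, was at 5715 CPM in NTT, 4487 in RTT_PTGS12KO, 4766 in RTT and 2083 in RTT_ROSA26. H2-Ab1 was at 7005 CPM in NTT and 5262 in RTT, and 2898 in RTT_ROSA26 against 4965 in RTT_PTGS12KO, and Ciita, the transactivator of class II genes, at 86.8 CPM in NTT, 82.2 in RTT_PTGS12KO, 66.4 in RTT and 41.2 in RTT_ROSA26. All 9 genes of the list were higher in RTT_PTGS12KO than in RTT_ROSA26, H2-Eb1 (1.11) and H2-DMb2 (1.15) at least 2-fold (4.02% of all genes), with a median of 0.78. No gene of the list was higher in RTT_ROSA26 than in RTT, where the median was -0.80. RTT_PTGS12KO and RTT had a median of -0.01 with 3 of 9 genes higher, and 8 of 9 were higher in NTT than in RTT, none of them 2-fold, with a median of 0.26. The low value of RTT_ROSA26 rests on its 54 cells, of which 47 had a UMI of H2-Eb1. It was not particular to Monocyte_1. The summed list was lowest in RTT_ROSA26 in Infl_Mono as well (5545 CPM against 8601 to 22447). The same held in the macrophage clusters TAM_H2Ab1 (13782 against 16058 to 22975) and TAM_C1q (3360 against 3715 to 8562).

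Ligands that recruit lymphocytes did not share 1 order. Ccl5 (chr11:83525778-83530518, minus strand), a chemokine that attracts T cells and NK cells, was at 2545 CPM in NTT and 800.2 in RTT, and 274 in RTT_ROSA26 against 817 in RTT_PTGS12KO. It was highest in NTT, lowest in RTT_ROSA26 and alike in RTT and RTT_PTGS12KO, with log2 ratios of 1.67 (interval 1.62 to 1.72) for NTT against RTT and 0.03 (interval -0.03 to 0.09) for RTT_PTGS12KO against RTT. In NK cells, which make Ccl5, its level was 3652 CPM in NTT and 1289 in RTT_PTGS12KO, and 1001 in RTT (13 cells) and 513 in RTT_ROSA26 (26 cells), and the part of this in the result was not tested. Ccl4 was at 888 CPM in NTT, 635 in RTT_PTGS12KO, 355 in RTT and 432 in RTT_ROSA26, again highest in NTT. Cxcl10 (chr5:92346638-92348889, minus strand), which shares its receptor Cxcr3 with Cxcl9, was at 743 CPM in NTT and 584 in RTT, and 1045 in RTT_ROSA26 against 838 in RTT_PTGS12KO. Cxcl10 was lowest in RTT. It was highest in RTT_ROSA26, where 19.3% of the UMIs came from 1 cell. Without the cell with most Cxcl10 UMIs in each sample it was 852 CPM in RTT_ROSA26, 833 in RTT_PTGS12KO, 739 in NTT and 561 in RTT. In cells thinned to 3000 UMIs its mean was 3.86 UMIs in RTT_ROSA26, 2.53 in RTT_PTGS12KO, 2.20 in NTT and 1.78 in RTT. The rank changed at 6000 UMIs, which kept 28 RTT_ROSA26 cells. There the mean was 4.07 in RTT_ROSA26, 5.08 in RTT_PTGS12KO, 4.47 in NTT and 3.96 in RTT. Of the 6 genes of the list that passed, 4 had a higher level in NTT than RTT, Ccl4 and Ccl5 at least 2-fold (2.13% of all genes).

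Of the 10 genes of a list of chemokines for myeloid cells that passed (11 in the list), 6 were higher and 4 lower in NTT when set against RTT, 3 at least 2-fold higher and 1 lower (2.13% and 0.928% of all genes), with a median of 0.64. For RTT_PTGS12KO against RTT_ROSA26, 7 were higher and 3 lower, 2 each past 2-fold (4.02% and 2.3% of all genes), with a median of 0.12. The Ccr2 ligands Ccl2 and Ccl7 were lowest in RTT. Ccl2 (chr11:82035571-82037453, plus strand), which recruits monocytes through Ccr2, was at 469 CPM in NTT, 900.0 in RTT_PTGS12KO, 178 in RTT and 934 in RTT_ROSA26. Ccl7, a second Ccr2 ligand, was at 123 CPM in NTT and 45.4 in RTT, and 325 in RTT_ROSA26 against 349 in RTT_PTGS12KO. Both were high in RTT_ROSA26 and RTT_PTGS12KO, whose values differed by -0.05 and 0.10 on the log2 scale, and Ccl7 was lower in NTT than in RTT_PTGS12KO, with a log2 ratio of -1.503 (interval -1.56 to -1.46). Ccl8 (chr11:82115185-82116799, plus strand) was at 139 CPM in NTT, 205 in RTT_PTGS12KO, 195 in RTT and 14.6 in RTT_ROSA26, low in RTT_ROSA26 alone, where it rests on 6 UMIs, 1 in each of 6 cells. Counts of Ccl2, Ccl7, Ccl8 and Ccl12 may be shared in part, since these genes are close relatives. Cxcl3, a neutrophil attractant, was at 64.5 CPM in NTT and 14.6 in RTT, and 92.2 in RTT_ROSA26 against 25.1 in RTT_PTGS12KO, and 55.3% of its RTT_ROSA26 UMIs came from 1 cell.

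**Figure D3:**
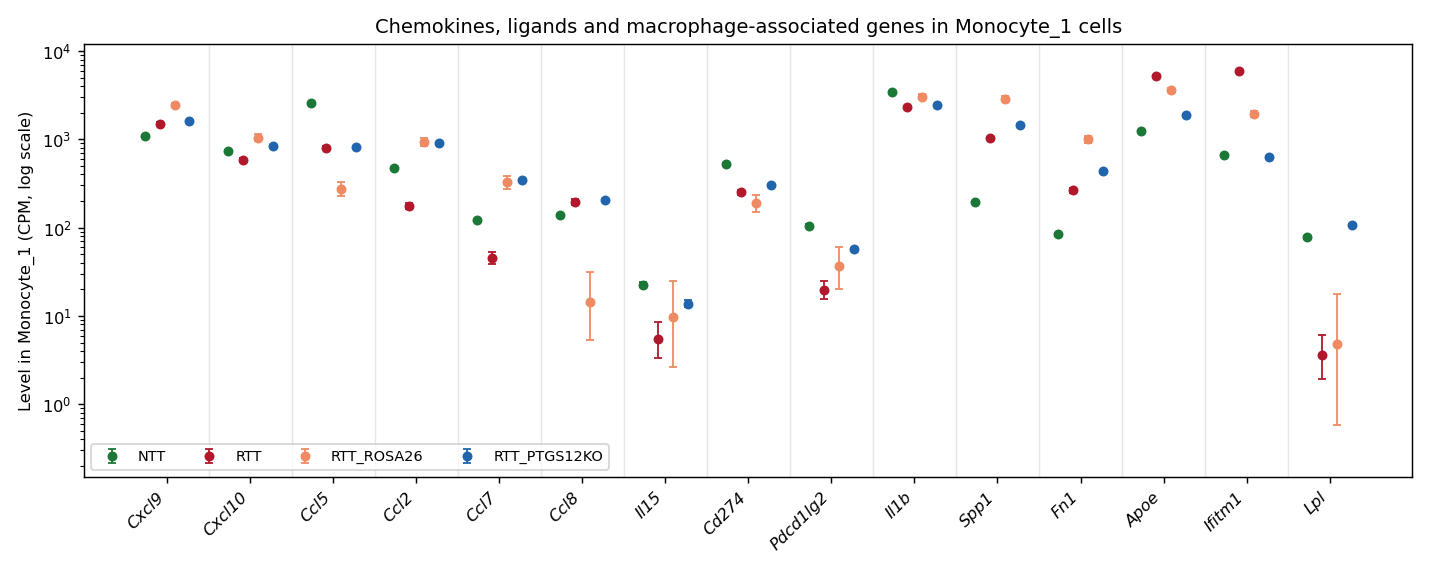
Level (CPM, log scale) of chemokines, ligands and macrophage-associated genes in Monocyte_1 cells of the 4 samples, with 95% counting intervals as bars. Ccl5, Il15, Cd274 and Pdcd1lg2 are highest in NTT, Cxcl9, Spp1 and Fn1 in RTT_ROSA26, and Apoe and Ifitm1 in RTT.

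Genes that act on T cells directly were mostly higher in NTT. Il15 (chr8:82331632-82403222, minus strand), a survival cytokine of CD8+ T cells and NK cells, was at 22.5 CPM in NTT, 13.8 in RTT_PTGS12KO, 5.51 in RTT and 9.70 in RTT_ROSA26, with 20 UMIs in RTT and 4 in RTT_ROSA26. Its log2 ratio was 1.85 (interval 1.39 to 2.75) between NTT and RTT, and the interval for RTT_PTGS12KO against RTT_ROSA26, from -0.86 to 2.39, included 0. Cd40, a costimulatory receptor, was at 91.5 CPM in NTT and 44.6 in RTT, and 58.2 in RTT_ROSA26 against 70.2 in RTT_PTGS12KO. Cd86, a ligand of Cd28, was at 199 CPM in NTT, 192 in RTT_PTGS12KO, 239 in RTT and 267 in RTT_ROSA26, lowest in RTT_PTGS12KO and NTT. Of the 8 genes of this list that passed, 7 were higher in NTT, and Il15 and Cd40 at least 2-fold (2.13% of all genes).

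The ligands of the inhibitory receptor PD-1 were highest in NTT as well. Cd274 (chr19:29367455-29388095, plus strand), which encodes PD-L1, was at 526 CPM in NTT and 253 in RTT, and 189 in RTT_ROSA26 against 306 in RTT_PTGS12KO. Pdcd1lg2 (chr19:29410919-29471161, plus strand), which encodes PD-L2, was at 105 CPM in NTT, 56.5 in RTT_PTGS12KO, 19.8 in RTT and 36.4 in RTT_ROSA26. Both were second in RTT_PTGS12KO, with log2 ratios of 1.05 and 2.35 for NTT against RTT. They were the 2 genes past 2-fold (2.13% of all genes) among the 10 of the restraint list, whose median was 0.31 and became -0.10 in monocyte-leaning cells. Il10 was below the minimum in every sample.

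Enzymes of amino acid and itaconate metabolism were mostly higher in NTT than in RTT. Acod1, which makes itaconate, was at 147 CPM in NTT and 65.01 in RTT, and 129 in RTT_ROSA26 against 133 in RTT_PTGS12KO, low in RTT. Against RTT, NTT had the higher level in 8 of 9 genes of this list, and Nos2, Ass1, Acod1 and Slc7a2 at least 2-fold (2.13% of all genes).

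Inflammatory targets of NF-kB were higher in NTT as a list. For NTT against RTT all 14 genes that passed were higher in NTT, 5 at least 2-fold (2.13% of all genes), with a median of 0.86. Il1b, a central inflammatory cytokine, was at 3468 CPM in NTT, 2438 in RTT_PTGS12KO, 2318 in RTT and 3046 in RTT_ROSA26. Ccrl2, a chemerin-binding receptor, was at 564 CPM in NTT and 199 in RTT, and 179 in RTT_ROSA26 against 336 in RTT_PTGS12KO, and Il1a at 68.0 CPM in NTT, 32.1 in RTT_PTGS12KO, 21.8 in RTT and 43.7 in RTT_ROSA26. All of these were highest in NTT, and Il1b and Il1a were lowest in RTT. The median was 0.46 for NTT against RTT_PTGS12KO, with all 14 genes higher in NTT, and 0.26 for RTT_PTGS12KO against RTT_ROSA26, with 10 of 14 higher. The 15 genes that respond to tissue dissociation moved the same way in these comparisons, with medians of 0.66, 0.38 and 0.22 in the same order, and their part in the result was not tested.

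Of 21 genes of glycolysis and the response to low oxygen 19 passed the minimum, and all 19 had the higher level in NTT when set against RTT, none at 2-fold, with a median of 0.49. It had a median of 0.03 for NTT against RTT_PTGS12KO. The complement list had a median of -0.54 for NTT against RTT, with lower C1q genes and at least 2-fold higher Cfb, C3 and C4b (2.13% of all genes), and its median was 0.55 in monocyte-leaning cells.

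Macrophage genes were higher in RTT. Of 15 macrophage genes that passed, 14 had the lower level in NTT, 4 of them at least 2-fold (0.928% of all genes), with a median of -0.59. Apoe (chr7:19696109-19699188, minus strand), an apolipoprotein of macrophages, was at 1234 CPM in NTT and 5259 in RTT, and 3599 in RTT_ROSA26 against 1879 in RTT_PTGS12KO. C1qb, a chain of C1q, was at 1994 CPM in NTT, 2361 in RTT_PTGS12KO, 3141 in RTT and 1860 in RTT_ROSA26. Apoe thus separated RTT and RTT_ROSA26 from the other samples, and C1qb was highest in RTT. In NK cells, which do not make Apoe, its level was 524 CPM in NTT and 506 in RTT_PTGS12KO, and 9303 in RTT and 4339 in RTT_ROSA26, where only 12 NK cells of RTT and 23 of RTT_ROSA26 had 3000 UMIs or more. The level in NK cells moved with that in Monocyte_1 cells, and its part in the difference was not tested. For RTT_PTGS12KO against RTT_ROSA26 the macrophage median was -0.07, and its sign turned without load 1 (0.23), under TMM scaling (0.03) and with the mean of CPM per cell (0.13).

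Single genes of the monocyte to macrophage range stood further apart. Ifitm1 (chr7:140967221-140969825, plus strand), an interferon-induced transmembrane protein, was at 669 CPM in NTT and 5895 in RTT, and 1926 in RTT_ROSA26 against 634 in RTT_PTGS12KO, high in RTT and low in NTT and RTT_PTGS12KO. Its log2 ratio for NTT against RTT was -3.14 (interval -3.17 to -3.11), opposite in direction to all 29 genes of the type I list. Spp1 (chr5:104435118-104441050, plus strand), osteopontin, was at 195 CPM in NTT, 1465 in RTT_PTGS12KO, 1028 in RTT and 2888 in RTT_ROSA26. Fn1 (chr1:71585520-71653200, minus strand), fibronectin, was at 83.9 CPM in NTT and 264 in RTT, and 997 in RTT_ROSA26 against 432 in RTT_PTGS12KO. Both were lowest in NTT and highest in RTT_ROSA26, and their log2 ratios for NTT against RTT_PTGS12KO were -2.90 and -2.35. Chil3 (chr3:106147554-106167564, minus strand), a chitinase-like protein of early monocytes, was at 87.0 CPM in NTT, 229 in RTT_PTGS12KO, 489 in RTT and 861 in RTT_ROSA26, again lowest in NTT. Spp1 was found in 67.1% of thinned NK cells of all samples, against 26.7% to 70.6% of Monocyte_1 cells, and the source of its UMIs in NK cells was not tested.

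Classical monocyte genes were split. Plac8 was at 3868 CPM in NTT and 1189 in RTT, and 2197 in RTT_ROSA26 against 2438 in RTT_PTGS12KO, and Ccr2 at 326 CPM in NTT, 449.7 in RTT_PTGS12KO, 297 in RTT and 628 in RTT_ROSA26. Plac8 was highest in NTT and Ccr2 in RTT_ROSA26. Of the 12 genes, 3 (Ly6c2 and Plac8 among them) were at least 2-fold higher and 2 (Chil3 and F13a1) at least 2-fold lower in NTT than in RTT, against 2.13% and 0.928% of all genes, and 11 of 12 were higher in RTT_ROSA26 than in RTT, with a median of 0.80. For RTT_PTGS12KO against RTT_ROSA26 the list's median was -0.26 (-0.55 to -0.01 over the loads), with 3 of 12 genes higher and 9 lower, 3 of them at least 2-fold (2.3% of all genes) and none higher by as much, whereas Ly6c2 was higher in RTT_PTGS12KO.

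The prostanoid pathway was measured in the monocytes themselves, which carry no edit. Ptgs2 was at 692 CPM in NTT and 371 in RTT, and 456 in RTT_ROSA26 against 563 in RTT_PTGS12KO, highest in NTT and second in RTT_PTGS12KO, whereas Ptgs1 lay between 4.25 and 12.1 CPM. The receptor gene Ptger2 was at 11.7 CPM in NTT, 11.04 in RTT_PTGS12KO, 15.7 in RTT and 12.1 in RTT_ROSA26, and Ptger4 at 13.6 CPM in NTT and 7.16 in RTT, and 21.8 in RTT_ROSA26 against 13.5 in RTT_PTGS12KO. The RTT_ROSA26 values rest on 5 and 9 UMIs, and their intervals (3.94 to 28.3 and 9.98 to 41.4 CPM) included the values of the other samples except Ptger4 in RTT. Tbxas1, thromboxane synthase, was the 1 gene of this list at least 2-fold higher in NTT than in RTT (1.01, where 2.13% of all genes were), and the list's median was 0.01, and -0.21 in monocyte-leaning cells. For RTT_PTGS12KO against RTT_ROSA26, Ptges2 (-1.32) and Hpgds (-1.21), both prostaglandin synthases, were at least 2-fold lower (2.3% of all genes), and Hpgds was at 0.043 without load 3.

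Cyclic AMP is known to act on a further list of genes. Of 11 that passed, none was at least 2-fold higher in RTT_PTGS12KO than in RTT_ROSA26. Areg (-3.10), Pde4d (-2.95) and Pde3b (-1.62) were at least 2-fold lower (2.3% of all genes). The median was -0.15, and 0.16 without load 1. Areg and Pde4d reached the minimum mean of 10 CPM only through RTT_ROSA26, where they were highest. Their direction here was thus partly set by the filter, and the count is no test of the list. Areg, a ligand of the EGF receptor, was at 3.003 CPM in NTT, 12.7 in RTT_PTGS12KO, 6.06 in RTT and 116 in RTT_ROSA26. In RTT_ROSA26, 42 of its 48 UMIs came from 1 cell, and without the cell with most UMIs in each sample the ratio was -0.34. Pde4d, a phosphodiesterase that degrades cyclic AMP, was at 3.94 CPM in NTT and 17.6 in RTT, and 50.9 in RTT_ROSA26 against 5.70 in RTT_PTGS12KO, from 12 cells in RTT_ROSA26. Pde4d was lower in NTT than in RTT as well, by a log2 ratio of -1.92 (interval -2.59 to -1.72).

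Between RTT_PTGS12KO and RTT_ROSA26 260 genes were at least 2-fold higher in the knockout (4.02% of 6468) and 149 lower (2.3%), together 409 (6.32%), so 63.6% of the called genes were higher, and 76.4% under TMM scaling. Between RTT_ROSA26 and RTT, which share the intact Ptgs genes, 471 genes (7.28%) passed 2-fold, 3.01% of all genes being higher and 4.27% lower in RTT_ROSA26, and 41.4% of the called genes were higher in RTT_ROSA26 and 27.2% under TMM scaling. Few of these genes had a counting interval wholly past 2-fold. With the 54 RTT_ROSA26 cells, these were 10 genes higher and 14 lower in RTT_PTGS12KO than in RTT_ROSA26. Between RTT_ROSA26 and RTT they were 27 higher and 16 lower in RTT_ROSA26. The intervals treat UMIs as independent, although UMIs of a gene cluster in cells. The 14 include Areg and Mmp9, with 42 of 48 and 24 of 26 RTT_ROSA26 UMIs in 1 cell. Of the 8 markers, 7 were higher in RTT_PTGS12KO than in RTT_ROSA26 and Nos2 and Inhba at least 2-fold (4.02% of all genes). That count is a description only, since few of the cluster's cells came from RTT_ROSA26. The highest genes by the rule were Ccl8, Lpl, Nos2, Hbb-bs, Inhba, Hmox1, Ccl5 and H2-Eb1. Hmox1, which degrades haem, was at 129 CPM in NTT, 195 in RTT_PTGS12KO, 104 in RTT and 48.5 in RTT_ROSA26, low in RTT_ROSA26 alone.

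The lowest genes of that comparison were Areg, Pde4d, Timp1, Mmp9, Pf4, Chil3, Ifitm1 and Cxcl3. Areg, Pde4d, Timp1 and Mmp9 reached the 50 CPM needed for naming in RTT_ROSA26 only. Timp1, an inhibitor of matrix proteases, was at 3.13 CPM in NTT and 12.4 in RTT, and 67.9 in RTT_ROSA26 against 10.4 in RTT_PTGS12KO, from 19 of the 54 RTT_ROSA26 cells. Pf4, a platelet and macrophage chemokine, was at 167 CPM in NTT, 251 in RTT_PTGS12KO, 359 in RTT and 1006 in RTT_ROSA26, and 1 cell held 37.1% of its RTT_ROSA26 UMIs. Mmp9 turned from -2.56 to 0.82 without the cell with most UMIs, since 1 RTT_ROSA26 cell held 24 of 26. The value of Pf4 moved from -1.997 to -1.43 and that of Cxcl3 from -1.84 to -0.82 in the same way.

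Between RTT_PTGS12KO and RTT there were 99 genes past 2-fold (1.53%), 60 higher (0.928%) and 39 lower (0.603%) in RTT_PTGS12KO. In this comparison all 8 markers were higher in RTT_PTGS12KO, Ly6c2 (1.32) and Inhba (1.13) at least 2-fold, with a median of 0.69. Between NTT and RTT_PTGS12KO, the samples with most cells, 29 genes were higher in NTT (0.448%) and 41 lower (0.634%), together 70 (1.08%). The counting interval lay wholly past 2-fold for 22 genes higher and 34 lower in NTT here, and for 21 higher and 25 lower in RTT_PTGS12KO than in RTT. The samples differ in cell number, so the comparisons are not ranked by these counts. The highest genes in NTT were Ifi44, Ccl5, H2-Q6, Mmp13, Irf7, Cxcl3, Il1r2 and Dnase1l3. The lowest were Spp1, Fn1, Cd81, Pdpn, Ch25h, Ccl7, Pmepa1 and Cd36. Cd36, a receptor for lipids, was at 23.5 CPM in NTT and 13.5 in RTT, and 48.5 in RTT_ROSA26 against 68.4 in RTT_PTGS12KO. Mmp13, a collagenase, was at 89.2 CPM in NTT, 31.8 in RTT_PTGS12KO, 116 in RTT and 14.6 in RTT_ROSA26, and Cd81, a tetraspanin, at 40.5 CPM in NTT and 158 in RTT, and 102 in RTT_ROSA26 against 160.1 in RTT_PTGS12KO. Cd36 was highest in RTT_PTGS12KO, and Cd81 was low in NTT alone. No marker was 2-fold different in this comparison, and 7 of 8 were higher in NTT.

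The share of cells with a transcript was read at equal depth. Among cells thinned to 3000 UMIs, 4867 in NTT and 3303 in RTT_PTGS12KO, and 376 in RTT and 51 in RTT_ROSA26, Ly6c2 was found in 91.2%, 72.8%, 45.2% and 64.7% of cells in that order. Nos2 was found in 33.6% (interval 32.2 to 34.9) in NTT and 26.4% (24.9 to 27.9) in RTT_PTGS12KO, and 14.6% (11.2 to 18.6) in RTT and 5.88% (1.23 to 16.2) in RTT_ROSA26. In NK cells, which can carry Ly6C but should lack Nos2, the shares were 23.6% for Ly6c2 and 2.47% for Nos2 over 1012 cells with a median depth of 9424 UMIs before thinning, and the interval of Nos2 in RTT_ROSA26 included that pooled value. Of the 25 NK cells with Nos2, 21 were among the 676 of NTT and 4 among the 301 of RTT_PTGS12KO, and none of the 12 of RTT or the 23 of RTT_ROSA26 had a UMI, which allows up to 26.5% and 14.8% (Clopper-Pearson), so the background within those samples is not known closely. Cxcl9 was found in 53.1% of NTT and 61.7% of RTT_PTGS12KO, and 47.9% of RTT and 64.7% of RTT_ROSA26 cells, against 6.92% of NK cells. Its share was higher in NTT than in RTT although its level was lower, so no order is read from the share. Isg15 was found in 70.4%, 55.3%, 37.8% and 56.9% of cells in the same sample order, against 19.8% of NK cells. The level of Isg15 in NK cells was 131 CPM in NTT and 57.8 in RTT_PTGS12KO, and 22.05 in RTT and 15.2 in RTT_ROSA26, highest in NTT as in Monocyte_1, and its part in the result was not tested. Without thinning, Nos2 was found in 46.8%, 43.0%, 25.8% and 9.26% of cells in that sample order.

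**Figure D4:**
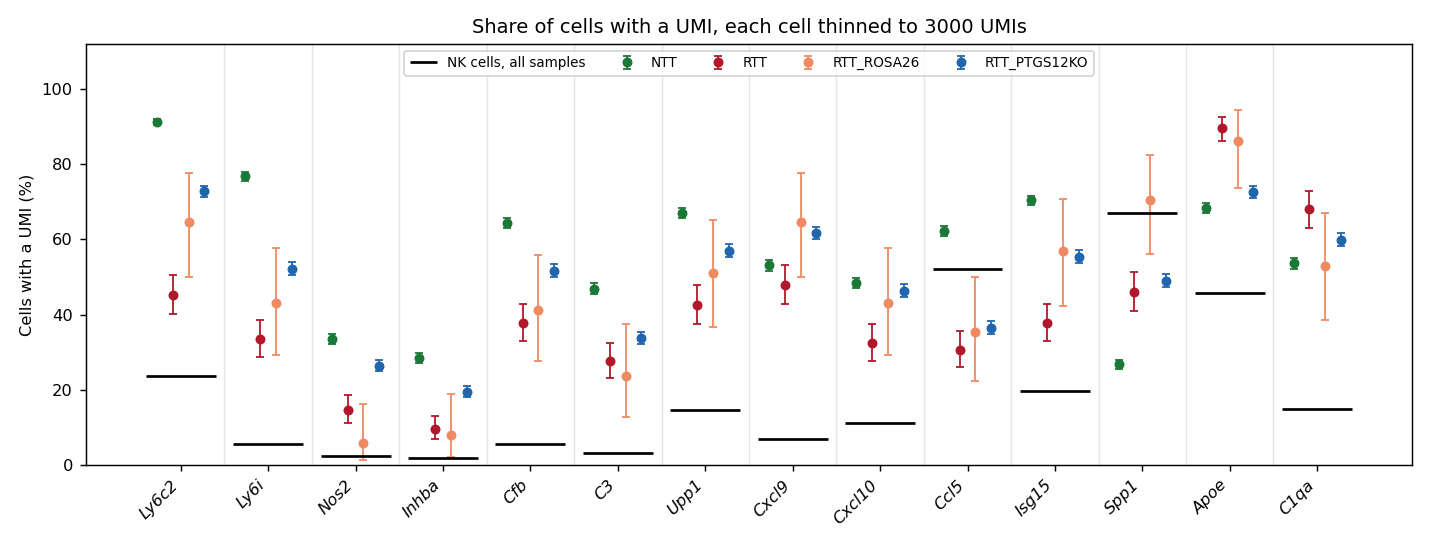
Share of Monocyte_1 cells with at least 1 UMI (%) of 14 genes in the 4 samples, each cell thinned to 3000 UMIs, with 95% Clopper-Pearson intervals. Black lines give the share in 1012 NK cells of all samples, above 3 of the 4 monocyte values for Spp1 and well below them for Cxcl9 and Ly6i.

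Genes were also compared over cells, where cells of 1 sample are not replicates and no test was made. Across the 4867 NTT cells and 3303 RTT_PTGS12KO cells, thinned counts of Nos2 and Inhba, on a log scale, had a Pearson r of 0.37 and 0.35, which was the highest for Nos2 in NTT, whereas Fth1 (0.38) was the highest in RTT_PTGS12KO. These are descriptions over cells of the same library, with depth held at 3000 UMIs.

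The genes that varied most between cells were much the same in the 2 large samples. Of the 25 genes with the highest ratio of variance to mean, 22 were shared, among them Ccl5, Ccl8, Cxcl2, Cxcl9, Cxcl10, Apoe and Il1b, named here after their values were seen. The ratio for Ccl5 was 29.6 in NTT and 20.0 in RTT_PTGS12KO, where the median over genes was 1.11 in both.

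Monocyte_1 was compared with the monocyte cluster Infl_Mono and with macrophage clusters. Summed over the type I interferon list, Monocyte_1 reached 8120 CPM in NTT and 4683 in RTT_PTGS12KO, and 3095 in RTT and 4926 in RTT_ROSA26. Infl_Mono reached 16313, 10936, 10442 and 9400 CPM in the same order, higher than Monocyte_1 in each of the 4 samples. The MHC class II list summed to more in Monocyte_1 than in Infl_Mono in all 4 samples (26976 against 22447 CPM in NTT and 12822 against 5545 in RTT_ROSA26). The macrophage list summed to 6415, 7832, 13223 and 9507 CPM in Monocyte_1 and to 40777, 29157, 56125 and 45292 in TAM_C1q, a macrophage cluster, again in that order. TAM_C1q held 12 cells in NTT and TAM_H2Ab1, a second macrophage cluster, 11 in RTT_ROSA26.

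**Figure D5:**
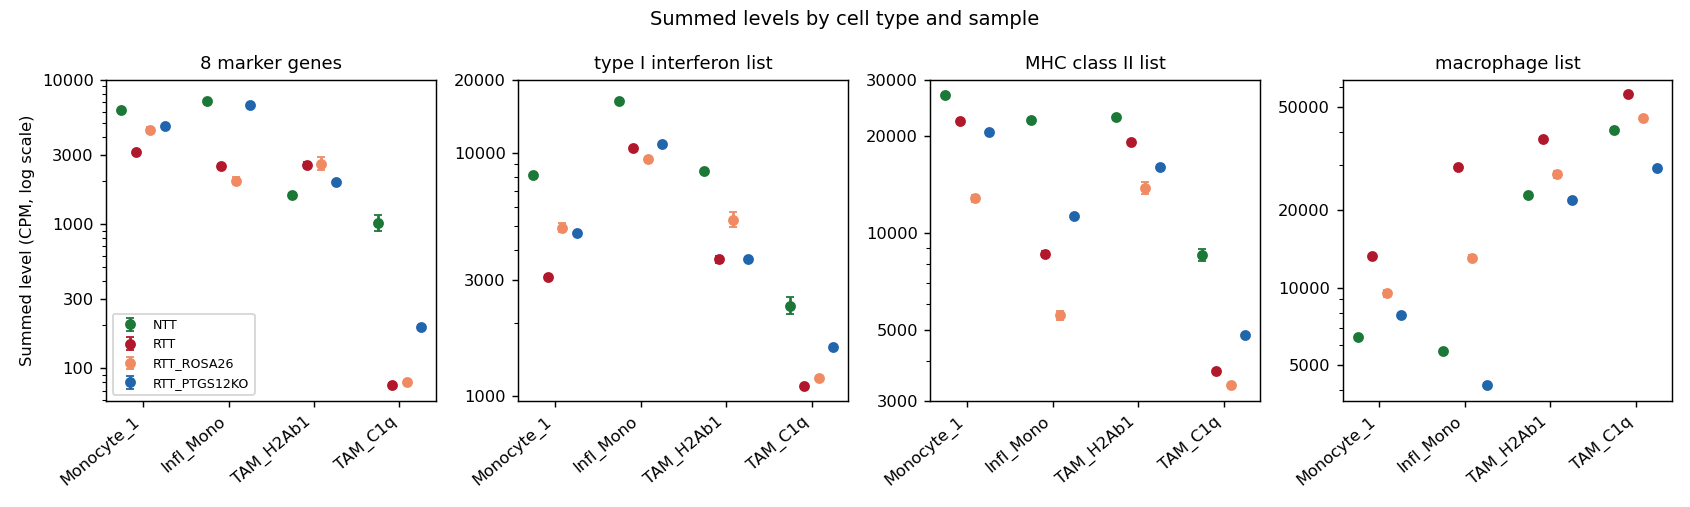
Summed level (CPM, log scale) of 4 gene lists in Monocyte_1 and 3 neighbouring types in each sample, with 95% counting intervals as bars. In every sample the type I interferon list is highest in Infl_Mono and the macrophage list in TAM_C1q.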

How the data were processed

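CD45+ cells of 4 tumour samples were labelled with sample tags, pooled and loaded 3 times on a droplet 3′ assay. The authors made the deposited counts (whole UMIs per gene and cell) with Cell Ranger on mm10 and named the cells after clustering in Seurat 4.3.0 together with other experiments. By the study's methods they removed cells with few genes or with high mitochondrial or ribosomal shares. Their doublet treatment beyond sample tags is not given in the sources used here, and no doublet caller was run.

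Here the counts of 32285 genes were summed over the Monocyte_1 cells of each sample and divided by the sum. Genes needed 10 CPM in the mean of the 4 samples. Since each group has 1 sample, no test was run. Sample totals are given in the report, and a count of 0 allows up to 3 counts. Named genes were the 8 highest and 8 lowest of 3 comparisons, by the bound of the counting interval nearest 0 among genes at 50 CPM or more in the higher sample, all list members, and Cxcl9, Cxcl10, Il15, Ly6a, Nos2, Il1b, Ptgs2, Cd274 and Ccl5. The members and lists were chosen with earlier results of these data known. Of 346 list genes, Cxcl11, Mx1 and Mx2 were not analysed here, and some named genes are not reported here. Levels were not compared between genes, since 3′ tags carry no length. Steps were tested on simulated data. Python 3.11.15, numpy 2.4.6, scipy 1.17.1, pandas 2.3.3, R 4.3.3 and edgeR 4.0.16 (for TMM factors) were used. Alternatives were CPM + 10, TMM, no minimum or 50 CPM, a stricter filter on cells, each load left out, the 5% of cells with most UMIs left out, the mean of CPM per cell, no mitochondrial or ribosomal protein genes, and other thinning depths. Monocyte-leaning cells and leaving out the cell with most UMIs were added after seeing the data.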

Additional observations from a re-analysis of the deposited data

How the results depend on the processing

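No paired analysis was possible because no group holds a second sample. The 3 loads hold the same pooled cells and give technical spread only, and the 54 RTT_ROSA26 cells limit every comparison with that sample. The numbers of genes past 2-fold, in the order NTT against RTT, RTT_PTGS12KO against RTT_ROSA26, RTT_ROSA26 against RTT, RTT_PTGS12KO against RTT and NTT against RTT_PTGS12KO, were 110, 93, 135, 42 and 29 with CPM + 10, 516, 2452, 2714, 295 and 173 with no minimum, and 78, 47, 54, 37 and 18 at 50 CPM. With the mean of CPM per cell they were 634 and 718 for the second and the third comparison, and with a load left out 566 to 707 and 698 to 791. Fewer genes at or over the minimum were tested at 50 CPM and more with none. The shares of Monocyte_1 were 61.8% in NTT and 33.9% in RTT_PTGS12KO without the 5% of cells with most UMIs. Shares of cells with a marker kept their order counts within 1.5 times at the other thinning depths.

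List medians that moved by more than the spread over loads follow. In monocyte-leaning cells the type II list was 0.082 for NTT against RTT, and the type I list 0.24 for RTT_PTGS12KO against RTT_ROSA26. For RTT_ROSA26 against RTT the type I list was 0.44 with CPM + 10, 0.59 with TMM, 0.32 at 50 CPM, 0.56 with the stricter filter, 0.50 to 0.57 with a load left out and 0.35 in monocyte-leaning cells. For RTT_PTGS12KO against RTT it was 0.35, 0.33 at 50 CPM, 0.39 to 0.48 with a load left out, 0.57 with the mean of CPM per cell and 0.50 in monocyte-leaning cells, where the MHC class II list was -0.12 (-0.13 to 0.0057 with a load left out) and the type II list 0.047. For NTT against RTT_PTGS12KO the type I list was 0.62 with CPM + 10, 0.67 with TMM, 0.66 at 50 CPM, 0.67 to 0.73 with a load left out, 0.71 without the cells with most UMIs, 0.66 with the mean per cell, 0.65 without mitochondrial and ribosomal protein genes and 0.50 in monocyte-leaning cells. There the MHC class II list was 0.28 with TMM, 0.33 with no minimum and at 50 CPM, 0.29 with the mean per cell, 0.25 without those genes and 0.29 in monocyte-leaning cells. The type II list was 0.21 with TMM and with the mean per cell, 0.18 without those genes and 0.091 in monocyte-leaning cells, and the macrophage list -0.095 with the mean per cell and -0.24 without those genes. The cause was not tested.

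Of 1305 ratios of single genes, 222 of them past 2-fold, 1247 kept their sign and 208 stayed past 2-fold with TMM, 1305 and 168 with CPM + 10, and 1205 and 184 without load 2. In monocyte-leaning cells 987 of 1170 kept their sign and 140 of 194 stayed past 2-fold, and 62 of 90 medians of the other lists kept their sign. Those of 7 genes that passed 2-fold turned their sign. With a load left out, Hbb-bs in NTT against RTT lay between -0.076 and 3.78 and Cx3cr1 between -1.86 and 0.20, Mmp9 in RTT_PTGS12KO against RTT_ROSA26 between -3.24 and 1.18 and Hpgds between -1.71 and 0.043, and in RTT_ROSA26 against RTT Hp between -0.0037 and 1.73, S100a8 between -0.14 and 2.01 and Mmp9 between -1.51 and 2.77. In monocyte-leaning cells Hbb-bs was -0.37, Mmp9 0.19 and -0.48, Hpgds 2.10 and Ifit3 0.91 in these comparisons, the last for RTT_PTGS12KO against RTT_ROSA26. Without the cell with most UMIs, Mmp9 was 0.82 and -1.15. The cause was not tested, apart from Mmp9, where 1 RTT_ROSA26 cell held 24 of 26 UMIs.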
